A study of Rattus norvegicus with 20 samples.

Results

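The unfolded protein response and the integrated stress response were followed here through 39 genes in rat liver. The genes were a list chosen with earlier results of these data known. It held 17 genes of the ATF4 arm and 4 sensors and transcription factors. It also held 14 chaperones and folding enzymes of the endoplasmic reticulum (ER) and 4 genes of ER-associated degradation. Where several probe sets named a gene, the one with the highest average stood for it. The array table gave a value for 38 of the 39, among 14217 genes in all, and Ern1 was not analysed here.

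Male Harlan Sprague-Dawley rats received tricresyl phosphate (TCP), an organophosphate ester, in corn oil by gavage on 4 consecutive days, and liver RNA was taken on the day after the last dose and hybridised to Affymetrix arrays. The control group was 5 rats given corn oil alone. The treated groups of 3 rats each received 62.3, 124.5, 248.6, 497.3 or 994.6 mg/kg a day, a range the labels give as 0.169 to 2.7 mmol/kg. All values are log2 intensities, so a difference of 1 is a doubling, and each array is 1 rat.

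Misfolded protein in the ER lumen is sensed by PERK (Eif2ak3), ATF6 and IRE1. PERK, like the kinases that sense amino acid shortage, heme deficit and double-stranded RNA, phosphorylates the translation factor eIF2 alpha, which slows general translation while favouring the ATF4 protein. ATF4 then induces genes of amino acid supply, feedback and cell death, whereas ATF6 and spliced XBP1 mainly induce chaperones and degradation factors. Hepatocytes secrete most plasma proteins and keep a large ER.

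At the top dose 7 of 17 ATF4 arm genes rose, as did 2 of 14 ER chaperones, while 0 of 4 degradation genes passed the test. A gene was called where limma's adjusted p, by Benjamini-Hochberg over all 14217 genes, was under 0.05. Against control, 9 of 38 members (23.7%) were called at 994.6 mg/kg and all 9 were higher, where 4.47% of all genes were called and 2.50% were called higher. The ATF4 arm held 7 of them: Ddit4, Atf3, Trib3, Atf4, Slc3a2, Ddit3 and Ppp1r15a. The other 2 were the ER genes Dnajb9 and Manf. Of the 9, only 3 kept their call whichever of the 8 arrays of both groups was left out: Atf3, Ppp1r15a and Manf. The median log2 change was 0.59 over the 17 ATF4 arm genes, 0.11 over the 14 chaperones, -0.05 over the 4 degradation genes and -0.01 over all genes.

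**Figure D1:**
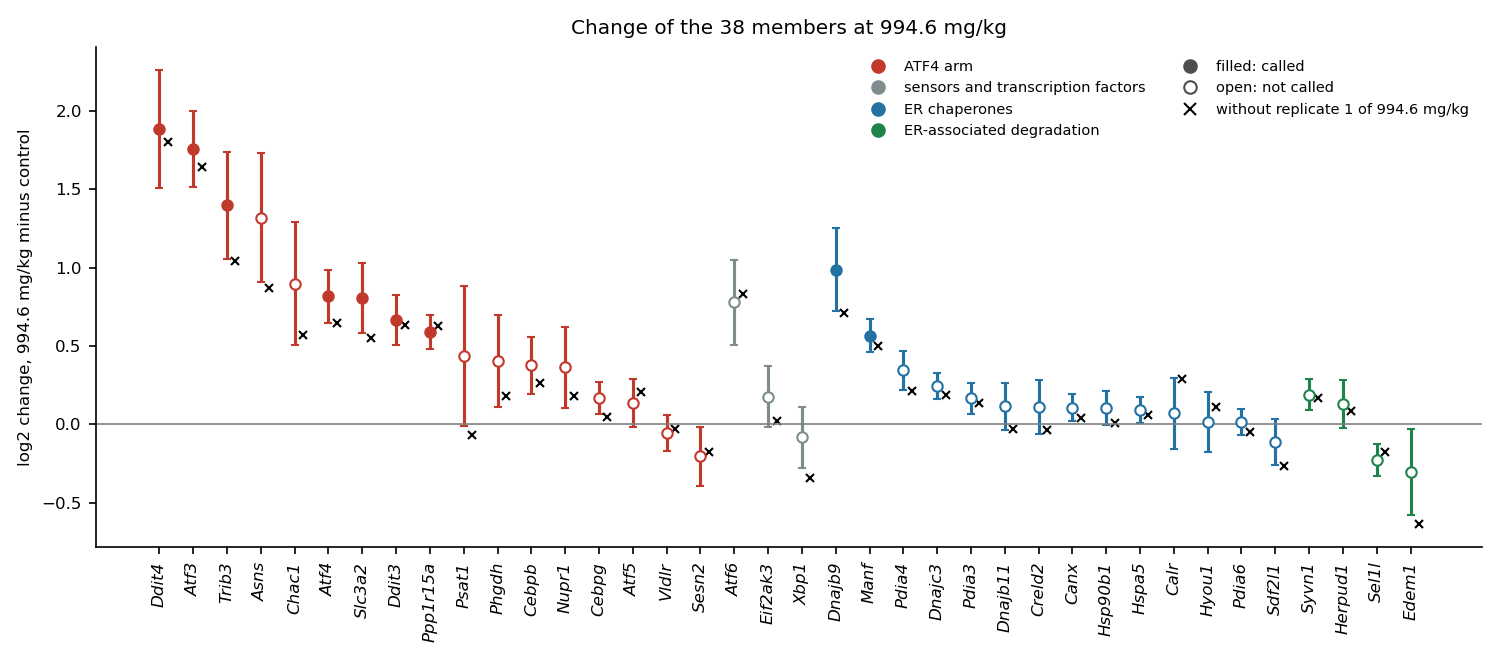
Log2 change of each of the 38 measured members at 994.6 mg/kg (n = 3) against control (n = 5), grouped by list. Points are limma estimates with standard errors, filled where called, and crosses are the estimates without replicate 1 of the top dose. The filled points are 7 ATF4 arm genes, Dnajb9 and Manf.

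The promoter letters of the 2 main lists are shown first, because these lists are usually set apart by the elements through which they are regulated. RefSeq windows of the GRCr8 build, from 250 bases before to 50 bases after each gene's start, were searched on both strands. The ER stress response element (ERSE, the letters CCAAT, then 9 bases of any kind, then CCACG), which ATF6 and XBP1 bind together with NF-Y, was found in 6 of 11 chaperone windows (54.5%) and in 21 of 27457 windows of all genes (0.0765%). Of the ATF4 arm, 0 of 16 windows held it. The C/EBP-ATF response element (CARE, letters TGATGNAA) was found in 3 of 16 ATF4 arm windows (18.8%), in 0 of 11 chaperone windows and in 1048 of all windows (3.82%).

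The examples below read 5′ to 3′ on the gene's strand, with the matched element in capitals. Hspa5 and Calr were chaperone genes not called in any comparison and Dnajc3 was called in the dose trend. Xbp1 encodes a regulator of that list, and Trib3, Chac1 and Nupr1 were the ATF4 arm genes with a CARE match.
Hspa5, chr3:38452961-38453003, plus strand: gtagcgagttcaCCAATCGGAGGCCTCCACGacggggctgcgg
Dnajc3, chr15:102432522-102432564, plus strand: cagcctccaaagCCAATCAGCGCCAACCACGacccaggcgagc
Calr, chr19:40213123-40213165, plus strand: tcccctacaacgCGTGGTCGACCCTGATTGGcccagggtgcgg
Xbp1, chr14:84604546-84604588, plus strand: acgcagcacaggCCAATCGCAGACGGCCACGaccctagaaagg
Trib3, chr3:161275535-161275566, minus strand: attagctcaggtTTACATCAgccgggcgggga
Chac1, chr3:126795952-126795983, plus strand: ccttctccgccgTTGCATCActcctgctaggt
Nupr1, chr1:190645937-190645968, minus strand: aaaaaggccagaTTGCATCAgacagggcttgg

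In Calr the ERSE match lies in the reverse orientation, and in Trib3, Chac1 and Nupr1 the CARE match does. The other ERSE matches among chaperones were in Hsp90b1, which held 2, Canx and Creld2. A shorter form (ERSE-II, the letters ATTGG, then 1 base of any kind, then CCACG) was found in Dnajb11 and Hyou1 and in 15 of all windows (0.0546%), and the XBP1 element (UPRE, letters TGACGTGG) in Hyou1, where it overlaps 1 of 2 ERSE-II matches, and in 175 of all windows (0.637%). Herpud1, a degradation gene that is also an ATF4 target, held both a CARE and an ERSE-II match:
Herpud1, chr19:10614809-10614903, minus strand: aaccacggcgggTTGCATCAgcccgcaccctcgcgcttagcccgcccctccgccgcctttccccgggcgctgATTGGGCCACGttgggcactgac
Of the 6 chaperone genes with an ERSE match, 0 were called at 994.6 mg/kg by limma (4.47% of all genes). At an unadjusted p under 0.05 only Dnajc3 passed (18.6% of all genes). Of the 3 ATF4 arm genes with a CARE match, Trib3 was called. A match describes these letters only and was not tested as a binding site. The promoters of Atf3, Atf6, Ern1, Pdia3, Pdia6 and Manf were not analysed here.

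Atf4 encodes the transcription factor at the centre of the response. Its log2 values in the 5 controls were 11.26, 11.19, 11.68, 11.60 and 11.57, and at 994.6 mg/kg they were 12.62, 12.23 and 11.98. All 3 top-dose rats lay above every control. The change was 0.82 ± 0.17 (SE), or 1.76-fold, with limma's adjusted p of 0.00968, and it was 0.65 with an adjusted p of 0.0963 without replicate 1 of the top dose.

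Atf3, a stress-induced repressor that acts downstream of ATF4, had control values of 5.90, 5.74, 5.88, 5.46 and 5.53. At 994.6 mg/kg it read 7.69, 7.58 and 7.11. These were the 3 highest of the 20 arrays, and the next was 6.73 in 1 rat of the 497.3 mg/kg group. The change was 1.76 ± 0.24, or 3.38-fold, with limma's adjusted p of 0.000361. Its average over all arrays lay in the lowest 50% of genes, as did that of Ppp1r15a. Leaving out any 1 array of both groups gave changes from 1.64 to 1.93, all called.

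Ddit3 encodes CHOP, the transcription factor linked to cell death in prolonged ER stress. It read 8.10, 8.15, 7.95, 8.17 and 8.41 in controls and 8.89, 8.59 and 8.99 at the top dose. The groups did not overlap, and the change of 0.67 ± 0.16, or 1.59-fold, had limma's adjusted p of 0.0221. The call ended when control replicate 1 or top-dose replicate 1 or 3 was left out, with adjusted p up to 0.119.

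The feedback genes rose as well. Trib3, a pseudokinase that dampens ATF4 and CHOP activity, read 8.38, 9.21, 8.59, 8.82 and 7.95 in controls and 10.70, 9.34 and 9.92 at the top dose. The change was 1.40 ± 0.34, or 2.63-fold, with limma's adjusted p of 0.0245. Its other probe sets differed by 1.74 and 1.57, so all 3 had the same direction. Their limma p, adjusted over all probe sets, was 0.0466 and 0.0768, so the latter was not called. The call of the main probe set ended when control replicate 1 or 5 or top-dose replicate 1 was left out. In the last case the change was 1.04. The call ended as well with the GAPDH 3′ minus 5′ difference as a covariate.

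Ppp1r15a encodes GADD34, the phosphatase subunit that restores eIF2 alpha and ends the translation block. It read 7.03, 6.75, 6.91, 6.87 and 6.90 in controls and 7.40, 7.31 and 7.72 at the top dose. The change was 0.59 ± 0.11, or 1.5-fold, with limma's adjusted p of 0.00428, and it was called whichever array of both groups was left out.

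Ddit4 encodes REDD1, an inhibitor of the growth kinase mTORC1 that also responds to glucocorticoids and hypoxia. It read 6.78, 7.02, 7.20, 7.64 and 6.97 in controls and 9.19, 8.76 and 9.09 at 994.6 mg/kg. Every top-dose rat lay more than 1 log2 unit above the highest control. The change of 1.89 ± 0.38, or 3.70-fold, was the largest of the 38 members, with limma's adjusted p of 0.00695, and 0.0517 without replicate 1 of the top dose.

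Slc3a2, the heavy chain of amino acid transporters of the cell surface, read 10.73, 11.19, 10.66, 11.19 and 10.41 in controls and 12.16, 11.39 and 11.37 at the top dose. It was 0.81 ± 0.23 higher, or 1.75-fold, with limma's adjusted p of 0.048. The call was lost without control replicate 1, 3 or 5, without top-dose replicate 1, where the change was 0.55, under quantile normalization or a trended and robust prior, with only both groups fitted and with the GAPDH 3′ minus 5′ difference, a measure of RNA quality, as a covariate.

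The other 10 genes of the ATF4 arm were not called. Asns, asparagine synthetase, had the largest difference among them, 1.32 ± 0.41 (limma adjusted p 0.0731), with controls at 8.03, 8.99, 8.11, 9.25 and 7.54 and the top dose at 10.60, 9.32 and 9.19. Only 2 of 3 top-dose rats lay above the highest control. Chac1, which degrades glutathione, differed by 0.90 ± 0.39 and Cebpb, a partner of ATF4, by 0.38 ± 0.18, and in both all 3 top-dose values lay above the controls. Psat1 and Phgdh, enzymes of serine synthesis, differed by 0.43 ± 0.45 and 0.40 ± 0.29, and Nupr1, a stress-induced chromatin protein, by 0.36 ± 0.26.

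Cebpg, another dimer partner of ATF4, and the ATF4 relative Atf5 differed by 0.17 ± 0.10 and 0.14 ± 0.15. Vldlr, a lipoprotein receptor, differed by -0.06 ± 0.12. Sesn2, a leucine sensor that is a usual target of ATF4 and of p53, had the lowest estimate of the list: it read 8.26, 8.26, 8.28, 8.82 and 8.43 in controls and 8.14, 8.23 and 8.25 at the top dose. All 3 lay below every control, yet the difference of -0.21 ± 0.19 had a limma adjusted p of 0.624. A second Sesn2 probe set differed by 0.12, with a low average over all arrays of 4.96, against 8.25 for the main one. Of all members, 14 had every top-dose value above the controls and 1 had every value below, against 6.91% and 7.12% of all genes.

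**Figure D2:**
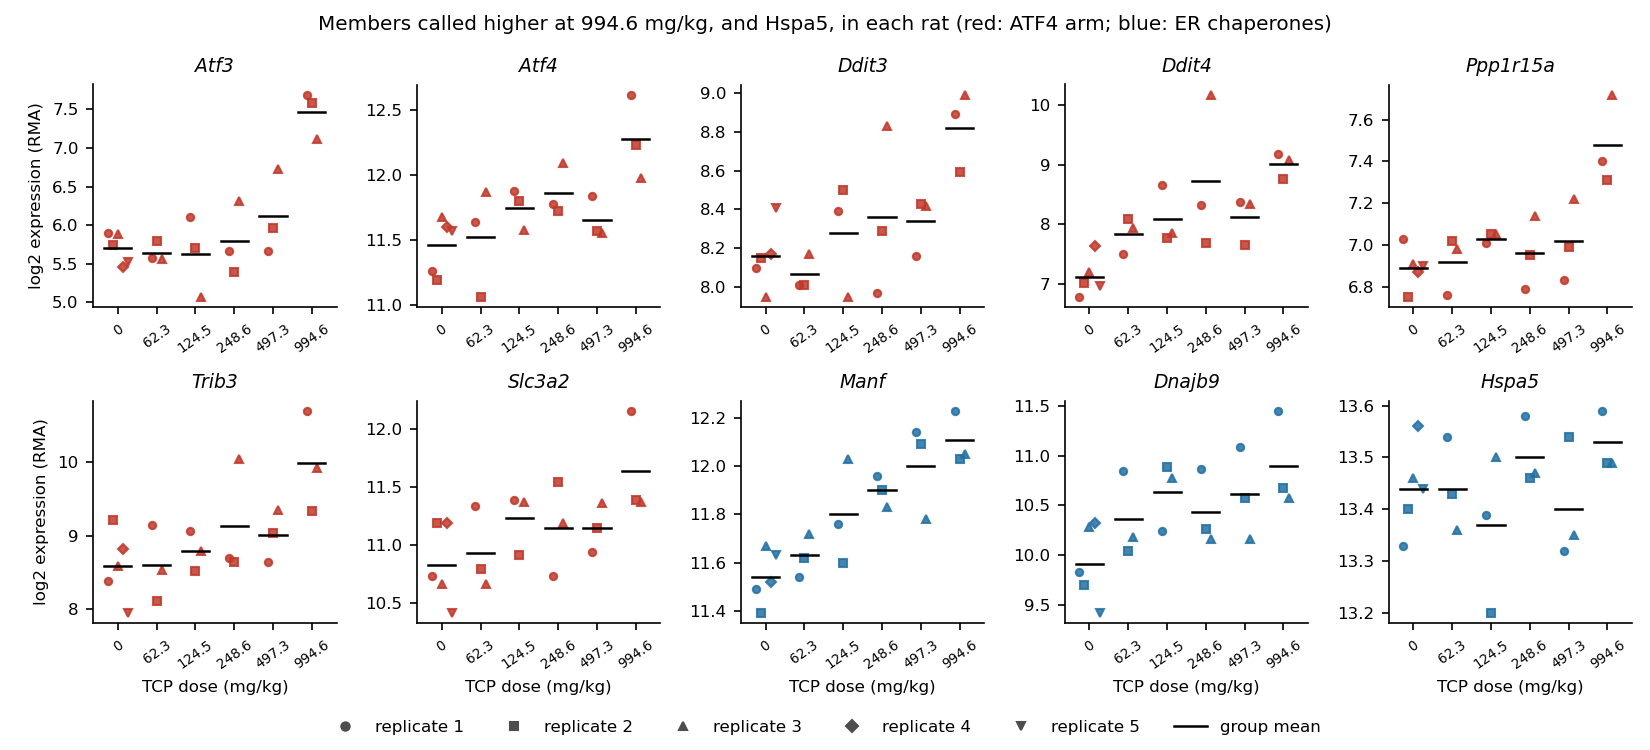
Log2 value of the 9 called members and of Hspa5 in each of the 20 rats by dose group, with the group mean as a line. Atf3 stays near its control values up to 248.6 mg/kg and is highest in the 3 rats at 994.6 mg/kg, whereas Manf stands above its controls from 248.6 mg/kg on.

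The sensors and their transcription factors had 0 of 3 measured genes called by limma at 994.6 mg/kg (4.47% of all genes). At an unadjusted p under 0.05 Atf6 was higher (18.6% of all genes). Atf6 encodes the membrane-bound factor that is cut free under ER stress. It read 9.78, 9.62, 8.65, 10.19 and 9.83 in controls and 10.28, 10.58 and 10.32 at the top dose, a difference of 0.78 ± 0.27 with limma's adjusted p of 0.113. The groups did not overlap, and 1 control lay far below the others. A second Atf6 probe set differed by 0.04 ± 0.11, with a low average over all arrays of 5.14, against 9.92 for the main one. Eif2ak3, the PERK kinase, differed by 0.18 ± 0.19 and Xbp1 by -0.08 ± 0.20. These arrays measured total Xbp1 and do not tell its spliced form.

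Among the 14 chaperones and folding enzymes, 13 estimates were above 0 at the top dose and the range was -0.11 to 0.99. Over all genes 6874 of 14217 estimates were above 0. In this list 2 genes were called, both higher, where 4.47% of all genes were called and 2.50% were called higher. At an unadjusted p under 0.05 by limma, 4 were higher and 0 lower (18.6% of all genes). Manf, a secreted ER protein that binds the chaperone BiP, read 11.49, 11.39, 11.67, 11.52 and 11.63 in controls and 12.23, 12.03 and 12.05 at 994.6 mg/kg. The change was 0.57 ± 0.10, or 1.48-fold, with limma's adjusted p of 0.00405. The groups were separate, and Manf was called whichever array of both groups was left out.

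Dnajb9, a J-domain cochaperone of BiP that restrains IRE1, read 9.83, 9.70, 10.28, 10.32 and 9.42 in controls and 11.45, 10.67 and 10.57 at the top dose. The change was 0.99 ± 0.27, or 1.98-fold, with limma's adjusted p of 0.0409. All top-dose values lay above the controls. The call was lost without control replicate 1, 2 or 5 or top-dose replicate 1 or 2, with changes from 0.71 to 1.15 over all 8 arrays left out, and under a trended and robust prior, with only both groups fitted or with the GAPDH covariate.

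Hspa5 encodes BiP, the chaperone most used as a marker of the unfolded protein response. It read 13.33, 13.40, 13.46, 13.56 and 13.44 in controls and 13.59, 13.49 and 13.49 at the top dose. The groups overlapped, and the difference of 0.09 ± 0.08 had a 95% interval of -0.08 to 0.26 and a limma adjusted p of 0.627. Hsp90b1, the lumenal HSP90 called GRP94, differed by 0.10 ± 0.11 and Hyou1, a large chaperone that exchanges the nucleotide of BiP, by 0.01 ± 0.19.

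Among the protein disulfide isomerases and lectin chaperones the largest difference was that of Pdia4. Pdia4 differed by 0.34 ± 0.12 (limma adjusted p 0.127), Pdia3 by 0.17 ± 0.10 and Pdia6 by 0.01 ± 0.08, with a 95% interval of -0.16 to 0.19 for Pdia6. The calcium-binding lectins Calr and Canx, which hold glycoproteins during folding, differed by 0.07 ± 0.23 and 0.11 ± 0.09. Other probe sets of Canx differed by -0.08 and 0.29, and a second Pdia3 probe set by -0.07. Dnajc3, a J-domain cochaperone also known to inhibit PERK, read 11.76, 11.80, 11.99, 12.01 and 12.06 in controls and 12.28, 12.08 and 12.15 at the top dose. Its values were separate from the controls, with a difference of 0.24 ± 0.08 (limma adjusted p 0.0915). The cochaperones Dnajb11 and Sdf2l1 differed by 0.11 ± 0.15 and -0.11 ± 0.15, and Creld2, a secreted ER stress protein, by 0.11 ± 0.17.

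Of the 4 degradation genes, 0 were called by limma at 994.6 mg/kg (4.47% of all genes). At an unadjusted p under 0.05 there were 0 higher and 1 lower, Sel1l (18.6% of all genes). Sel1l, the scaffold of the membrane ubiquitin ligase, read 9.91, 9.82, 9.88, 10.01 and 10.11 in controls and 9.63, 9.84 and 9.69 at the top dose, a difference of -0.23 ± 0.10 with an adjusted p of 0.236. Its partner ligase Syvn1 differed by 0.19 ± 0.10, with all 3 top-dose values above the controls. Herpud1, which gathers the ligase complex, differed by 0.13 ± 0.15, and Edem1, a mannosidase-like factor that hands glycoproteins to degradation, by -0.30 ± 0.28, with its other probe sets at -0.23 and -0.07.

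**Figure D3:**
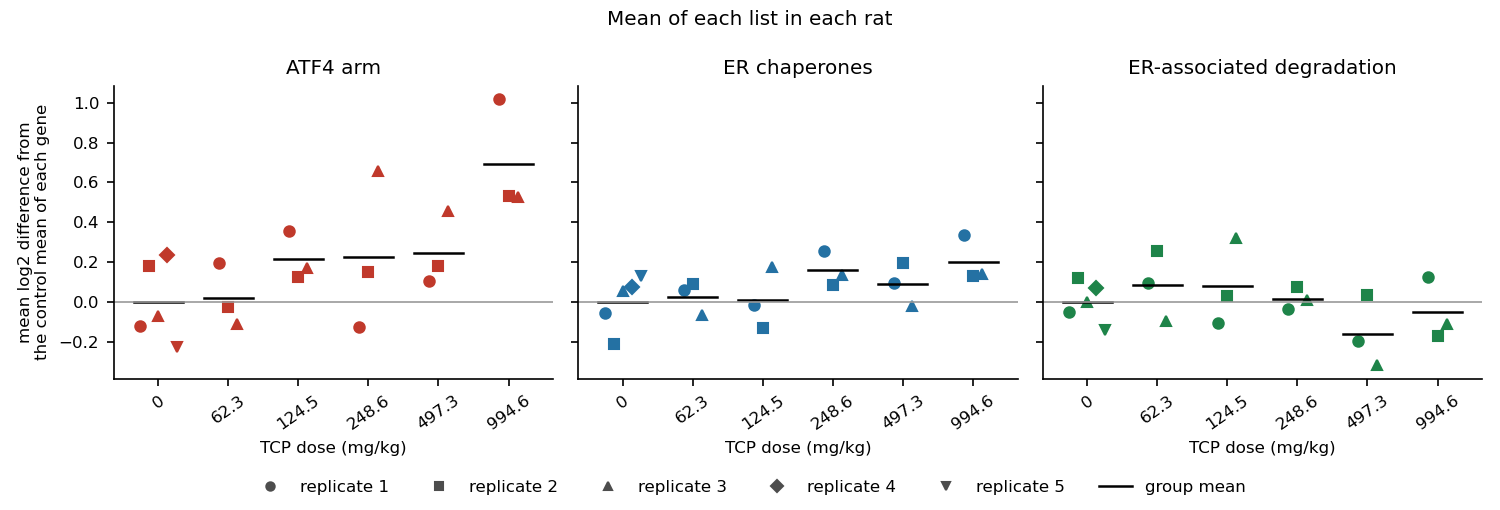
Mean deviation from the control mean over the genes of each list in each rat (log2), by dose group. The ATF4 arm lies between -0.23 and 0.23 in controls and between 0.53 and 1.02 at 994.6 mg/kg, while the degradation genes lie between -0.14 and 0.12 in controls and between -0.17 and 0.13 at 994.6 mg/kg. Replicate 3 at 248.6 mg/kg, at 0.66, lies within the top-dose range of the ATF4 arm.

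Averaged per rat, the ATF4 arm stood 1.02, 0.53 and 0.53 above the control mean at 994.6 mg/kg, and the 5 controls lay between -0.23 and 0.23. Replicate 3 at 248.6 mg/kg stood at 0.66, within the top-dose range, and replicate 3 at 497.3 mg/kg at 0.46. The chaperones lay between 0.13 and 0.34 at the top dose, against -0.21 to 0.13 in controls. These ranges overlapped slightly, with the lowest top-dose rat at 0.13 and the highest control at 0.132. Some rats of lower doses lay within the top-dose range, such as replicate 1 at 248.6 mg/kg at 0.25. The degradation genes lay within -0.17 to 0.13, a range that overlaps their controls. No test was made of these averages or of the difference between the lists, since the members were chosen.

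Replicate 1 of the top dose stood above the other top-dose rats. It was the highest of all 20 arrays for 19 of 38 members, against 15.6% of all genes. Without it limma called 3 of 38 members, Atf3, Ppp1r15a and Manf, and 173 of all genes (1.22%). Some changes stayed about as large: Ddit4 was 1.80 higher, against 1.89, and Ddit3 0.64, against 0.67. The ATF4 arm median was 0.55, against 0.59, and the chaperone median 0.08, against 0.11. Other changes were smaller without this rat: Trib3 was 1.04 higher, against 1.40, and Asns 0.87, against 1.32. Slc3a2 and Dnajb9 were 0.55 and 0.71 higher, and the Psat1 estimate turned to -0.07. That of Ppp1r15a was 0.63, no smaller than with this rat.

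Below the top dose few members were called. Limma called 0 of 38 at 62.3 mg/kg, where 0% of all genes were called, with 2 members at an unadjusted p under 0.05 (2.45% of all genes), Cebpb higher and Xbp1 lower. It called 0 at 124.5 mg/kg (0.00703% of all genes) and 0 at 248.6 mg/kg (0.0563% of all genes), with 4 members at an unadjusted p under 0.05 at each dose, all higher, against 5.04% and 6.65% of all genes. At 497.3 mg/kg it called 1, Manf, against 0.732% of all genes, and 5 members had an unadjusted p under 0.05 (12.2% of all genes). Every treated value lay above every control for 1 member at 124.5 mg/kg (2.24% of all genes), 4 at 248.6 mg/kg (4.25%) and 2 at 497.3 mg/kg (5.71%), and below for 1 at 497.3 mg/kg, Cebpb (4.29%).

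Manf read 12.14, 12.09 and 11.78 at 497.3 mg/kg, all above the highest control of 11.67. The change was 0.46 ± 0.10, or 1.38-fold, with limma's adjusted p of 0.045, and the call was lost for 6 of the 8 arrays left out in turn (adjusted p up to 0.213). At 248.6 mg/kg it read 11.96, 11.90 and 11.83, also separate from the controls, with a difference of 0.36 and an adjusted p of 0.494. At 62.3 and 124.5 mg/kg the differences were 0.09 and 0.26, so the estimates of Manf increased with each dose.

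Ddit4 was above its controls at lower doses as well. At 124.5 mg/kg it read 8.66, 7.77 and 7.85, at 248.6 mg/kg 8.32, 7.69 and 10.18 and at 497.3 mg/kg 8.37, 7.66 and 8.35, and all 9 values exceeded the highest control of 7.64. The differences were 0.97, 1.60 and 0.999, none called, with limma adjusted p of 0.939, 0.29 and 0.261. Without replicate 2 of the 248.6 mg/kg group the difference was 2.12 and was called (adjusted p 0.0378), and without replicate 3 it was 0.88.

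That replicate 3 of the 248.6 mg/kg group stood apart in several ATF4 arm genes. It had the highest value of all 20 arrays for Ddit4 (10.18), Chac1 (9.87) and Sesn2 (8.97), and its Chac1 companions read 7.79 and 7.75. Trib3 was 10.05 there, against 8.70 and 8.65 in the companions, and Ddit3 was 8.83, against 7.97 and 8.29. Without this rat the difference at 248.6 mg/kg was 0.00 for Chac1, 0.09 for Trib3 and -0.03 for Ddit3. Of the ER genes, Sel1l was also the highest of 20 in this rat (10.20, against 9.92 and 9.80), and Calr read 12.40, against 11.96 and 11.90. Hspa5 read 13.47 beside 13.58 and 13.46, and Dnajb9 and Manf were lower in this rat than in its companions.

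At 248.6 mg/kg all 14 chaperone estimates were above 0, with a median of 0.14 and a range of 0.01 to 0.52, while none was called. Over all genes 7610 of 14217 estimates were above 0 at this dose, and 0.0563% were called. At 497.3 mg/kg 8 of 14 chaperones were above 0 (7424 of 14217 over all genes) and the chaperone median was 0.01. The ATF4 arm medians were 0.01, 0.17, 0.09, 0.27 and 0.59 from the lowest to the highest dose. The comparisons with control share the same 5 control rats, so they are not independent.

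The comparison of the top dose with 497.3 mg/kg does not use those controls. Limma called 0 of 38 members, against 0.0211% of all genes, and at an unadjusted p under 0.05 there were 7 members (7.61% of all genes), all higher and all of the ATF4 arm. The smallest adjusted p was that of Atf3, which read 5.66, 5.96 and 6.73 at 497.3 mg/kg and was 1.34 ± 0.27 higher at 994.6 mg/kg (adjusted p 0.0951). Estimates were above 0 for 16 of 17 ATF4 arm genes, with a median of 0.46, and for 13 of 14 chaperones, with a median of 0.13. Over all genes 6635 of 14217 estimates were above 0. Without replicate 1 of the top dose Atf3 was 1.23 higher, with limma's adjusted p of 0.372. The estimates of Psat1, Phgdh and Nupr1 were then below 0, and those of the other ATF4 arm genes above 0. In 9 members every value of the top dose lay above every value at 497.3 mg/kg (3.92% of all genes): Ddit3, Ddit4, Atf3, Atf4, Ppp1r15a, Cebpb, Slc3a2, Atf6 and Pdia3.

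Over all 6 groups, a slope per dose step (steps 0 to 5) was called in 8 of 38 members (21.1%), all upward, against 5.20% of all genes and 3.05% upward. Ddit4 rose by 0.31 ± 0.07 a step, Atf3 by 0.30 ± 0.04, Trib3 by 0.25 ± 0.06, Atf4 by 0.13 ± 0.03, Ddit3 by 0.12 ± 0.03 and Ppp1r15a by 0.09 ± 0.02. From the chaperones, Manf rose by 0.12 ± 0.02 and Dnajc3 by 0.06 ± 0.01, with limma adjusted p of 0.00102 and 0.0279. Asns, Slc3a2 and Dnajb9 had slopes of 0.23, 0.13 and 0.16 that were not called (adjusted p 0.0683, 0.0606 and 0.0588). Among treated groups alone only the slope of Atf3 was called, 0.41 with an adjusted p of 0.0122. Without replicate 1 of the top dose the slopes of Ddit3, Atf4, Trib3 and Dnajc3 were not called. That of Dnajc3 was also lost without control replicate 1 or 2, replicate 3 at 62.3 mg/kg or replicate 1 at 497.3 mg/kg, and that of Trib3 with array weights.

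The members also differed in how much rats of 1 group varied. The median standard deviation within groups was 0.35 for ATF4 arm genes, 0.17 for chaperones, 0.18 for degradation genes and 0.15 for all genes. In controls Asns and Psat1 had the widest ranges of the 38 members, 7.54 to 9.25 and 8.19 to 9.82, followed by Atf6, Phgdh and Trib3. Canx and Cebpb had the narrowest, 12.18 to 12.29 and 11.25 to 11.37. In each of the 6 groups 1 rat was the lowest for all 4 of Asns, Psat1, Phgdh and Slc3a2, and in 4 groups 1 rat was the highest for all 4. In controls, replicate 5 was the lowest in all 4 and at 994.6 mg/kg replicate 1 was the highest. These genes were put together after their values were seen.

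**Figure D4:**
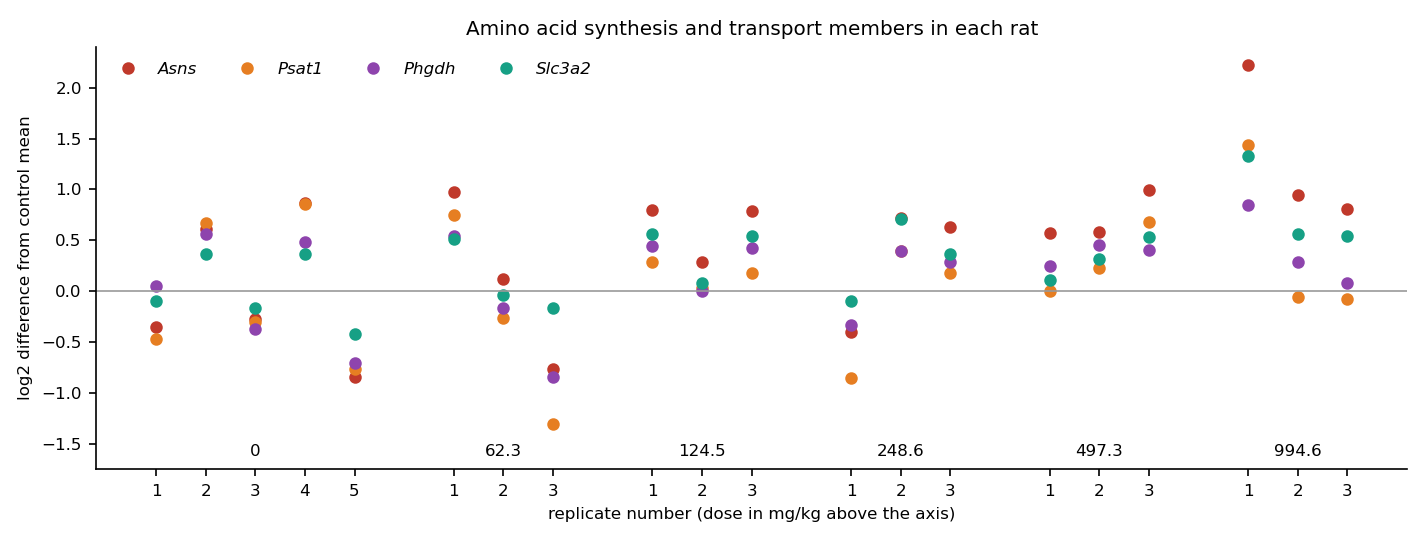
Log2 difference of Asns, Psat1, Phgdh and Slc3a2 from their control means in each rat, with rats ordered by replicate number within each dose group. In every group the points of 1 rat are the lowest for all 4 genes, such as replicate 5 of the controls, and replicate 1 at 994.6 mg/kg is the highest.

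Another pattern within groups, also put together after the values were seen, was that of Cebpb, Edem1 and Herpud1. Replicate 2 at 62.3 mg/kg read 12.33, 13.38 and 12.04 for these genes, and replicate 3 at 124.5 mg/kg read 12.10, 13.57 and 12.25. These 2 rats were the 2 highest of 20 in each gene. The first was the highest of 20 for 7% of all genes and the second for 2.76%. Neither rat belonged to the top dose, and the largest control values were 11.37, 12.93 and 11.98.

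Other genes of both pathways were taken from lists chosen by function, with earlier results of these data known. Of 42 measured genes of the integrated stress response outside the members, 3 were called higher and 1 lower at 994.6 mg/kg (9.52%, against 4.47% of all genes). Gdf15, a stress hormone, was 1.23 ± 0.26 higher (limma adjusted p 0.0104): its controls ranged from 6.24 to 6.72 and the top-dose rats from 6.68 to 8.22. Eif2ak2, the PKR kinase of eIF2 alpha, was 0.75 ± 0.21 higher (adjusted p 0.0464) and Sqstm1, an autophagy receptor, 0.46 ± 0.11 higher (adjusted p 0.0182). Cbs, which opens transsulfuration, fell by 0.65 on the log2 scale (SE 0.12, adjusted p 0.00347) and by 0.58 at 497.3 mg/kg (adjusted p 0.0232). At the top dose the call of Gdf15 was lost without top-dose replicate 2 or 3, those of Eif2ak2 and Sqstm1 without replicate 1, and that of Eif2ak2 also without control replicate 1, 2, 3 or 5 or top-dose replicate 2.

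Of 55 other genes of ER protein processing, 2 were called at 994.6 mg/kg, both higher. This share, 3.64%, was below the 4.47% of all genes. Fkbp11, a prolyl isomerase of secretory cells, was 0.48 ± 0.13 higher (limma adjusted p 0.0385), and Ubxn4, an ER membrane partner of the segregase VCP, 0.35 ± 0.10 higher (adjusted p 0.0465). Both calls were lost without top-dose replicate 1 and without control replicate 1, 2, 4 or 5, that of Fkbp11 also without top-dose replicate 3 and that of Ubxn4 without top-dose replicate 2. In the dose trend, where 5.20% of all genes were called, 2 of the 55 were: Fkbp11 and Stt3a, a catalytic subunit of the oligosaccharyltransferase, the latter with a slope of 0.07 and an adjusted p of 0.0443, a call lost for 16 of the 20 arrays left out in turn.

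Measures of the RNA and of other cells were set beside these results. Arrays correlated at 0.9860 to 0.9956 within groups. The 3′ minus 5′ log2 difference of the GAPDH control probes was 1.13 to 1.56 in controls and 0.612 to 0.836 at 994.6 mg/kg. In 14 of the 15 treated rats, of all doses, it was 0.612 to 1.11, below every control. The other treated rat, replicate 2 at 124.5 mg/kg, stood apart at 2.58 and was the highest of 20 for 16.1% of all genes but for 1 of 38 members. Without it limma still called 0 members at 124.5 mg/kg. With this difference as a covariate 6 of the 9 members called at the top dose kept their call. Trib3 had a change of 1.33 (adjusted p 0.0787), Slc3a2 of 0.69 (0.15) and Dnajb9 of 1.07 (0.068). Outside the members, Eif2ak2, Sqstm1, Fkbp11 and Ubxn4 lost their call with it. In the dose trend Atf4, Trib3 and Dnajc3 did, at adjusted p of 0.0505, 0.0732 and 0.106. The slope of this covariate was fitted within groups. Its spread was widest at 124.5 mg/kg, with a standard deviation of 1.1, against 0.098 to 0.18 in the other groups. The lower values of treated rats go with the dose groups, so this fit cannot separate RNA quality from treatment. All 6 hepatocyte markers were measured, and their mean was 13.67 to 13.82 in controls and 13.74 to 13.76 at the top dose. Of 4 measured red blood cell markers 3 were called lower, with a mean of 7.14 to 8 against 8.61 to 8.73, and of 4 cholangiocyte markers 1 was called higher, with 7.06 to 7.23 against 6.64 to 7.06. Of 5 pancreatic markers 1 was called lower (6.24 to 6.56 against 6.53 to 6.72), and of 5 plasma cell markers, cells rich in ER chaperones, 0 were called (6.29 to 6.43 against 6.29 to 6.61). Of the measured Kupffer, endothelial, stellate, neutrophil and lymphocyte markers 0 were called. The part of these cell types in the member values was not tested, and in whole liver fewer cells of a type and less RNA per cell cannot be told apart.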

How the data were processed

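Liver RNA of 20 rats was measured on Affymetrix arrays. The authors deposited log2 intensities made by RMA, per the submitters' processing notes, with the version and the arrays normalized together not given in the sources used here. Scanner files were not used here. Of 31042 probe sets that were not controls, 20826 had 1 gene symbol, 436 several and 9780 none here. Symbols were updated through gene identifiers, and the probe set with the highest mean stood for each of 14217 genes. The members and gene lists were chosen with earlier results of these data known.

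Group means were fitted over all arrays with limma 3.58.1 in R 4.3.3 (14 residual degrees of freedom), with Benjamini-Hochberg adjustment over all genes and calls at 0.05. The fit was tested on simulated data. All measured members are named, and other pathway genes where called at 994.6 mg/kg or in the trend. Each label number is a separate rat. The alternatives were quantile and median normalization, the mean of all probe sets, array weights, a trended and robust prior, a filter on low genes, a threshold of 0.1, only the groups compared, a replicate block, the GAPDH covariate, treated groups alone and each array left out. Promoter windows came from RefSeq's table for GRCr8. Precision is set by the 3 to 5 rats of a group.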

Additional observations from a re-analysis of the deposited data

How the results depend on the processing

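The 9 members called at 994.6 mg/kg stayed 9 under median centring and probe set means, were 11 at a threshold of 0.1, with Asns and Dnajc3 added, and 14 (13 higher, 1 lower) with array weights, where 2841 genes (20%) were called. Of the 9, 8 kept their call under quantile normalization and 7 under the trended and robust prior. With only the groups compared 7 kept it, and with the covariate 6. Leaving out 1 array gave 3 to 10 members, 2 to 8 of the ATF4 arm and 1 to 2 chaperones. The filter on the lowest 50% of genes left Atf3 and Ppp1r15a without a value. Chaperone calls were 1 under the trended and robust prior, the covariate and only the groups compared, and 4 with array weights, which called 1 degradation gene, Edem1, lower. At 497.3 mg/kg 0 members were called under median centring and the covariate, 2 with only the groups compared and 0 to 1 with an array left out, as at 248.6 mg/kg. Against 497.3 mg/kg 1 member passed with array weights and 1 at the threshold of 0.1. The trend called 5 members with the covariate, 1 in treated groups alone and 4 to 11 with an array left out.

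Replicate numbers showed little pairing of the rats. The correlation of deviations was 0.04 on average over 45 same-numbered pairs (-0.31 to 0.37), against -0.02 over 90 differently numbered pairs. An average of this kind cannot exclude a pairing. With the replicate block 6 of the 9 members were called at 994.6 mg/kg, 1 of them a chaperone, and 0 at 497.3 mg/kg. The calls of Trib3, Slc3a2 and Dnajb9 at 994.6 mg/kg ended with the block, at limma adjusted p of 0.105, 0.139 and 0.0793. In the trend 8 members were called with it, where Trib3 was not (0.0676) and Pdia4 was (0.0393).

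No called member changed sign at 994.6 mg/kg in any alternative. Of uncalled members, the log2 change turned to 0.068 for Vldlr with probe set means, to -0.01 for Pdia6 and -0.018 for Hyou1 with quantile normalization, to 0.008 for Sdf2l1 with the replicate block, and with the covariate to -0.036 for Hsp90b1, -0.218 for Calr, -0.045 for Pdia6 and -0.142 for Hyou1. Array weights gave 0.006 for Vldlr, -0.069 for Pdia6, -0.021 for Hyou1, -0.044 for Creld2 and -0.016 for Herpud1. With an array left out, values that turned ranged from -0.051 to 0.06 for Pdia6, -0.102 to 0.118 for Hyou1, -0.063 to 0.292 for Calr, -0.068 to 0.692 for Psat1, -0.029 to 0.281 for Dnajb11, -0.035 to 0.198 for Creld2 and -0.342 to 0.07 for Xbp1. The cause was not tested. With 3 rats a group, differences such as that of Hspa5 are bounded only by their intervals.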
